A study of Rattus norvegicus with 38 samples.

Results

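The change in DNA methylation that each rat pup of cohort 1 underwent between postnatal day 2 (P2) and postnatal day 10 (P10) was compared between 5 pups reared in limited bedding and nesting cages (LBNs) and 6 control pups. These 11 pups, of 19 in the series, gave 22 of its 38 buccal swab samples. The measure was δ methylation, the log2 of the ratio of the P10 to the P2 methylation percentage of the same pup at the same differentially methylated region (DMR). A positive δ methylation therefore means a higher percentage at P10. It was defined at 3381 of the 3417 DMRs, those with no percentage of 0 in any cohort 1 sample.

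All pups were Sprague Dawley rats of either sex, pooled over litters and redistributed over dams on P2, so that the P2 swab of every pup preceded its assignment. Control pups (C3, C4, C6, C7, C9 and C12) stayed with a dam in a standard cage with cob bedding and nesting material. LBN pups (LBN2, LBN3, LBN4, LBN9 and LBN12) stayed from P2 to P9 in a cage with a mesh platform, sparse bedding and part of a paper towel, an arrangement under which maternal care becomes fragmented. The dam, the cage and the sex of a pup are not given with the samples, so pups that shared a dam were treated as independent, which would make p values too small. Methylation was read by reduced representation bisulfite sequencing (RRBS), in which the enzyme MspI cuts DNA at CCGG and bisulfite separates methylated from unmethylated cytosines. How many reads each percentage rests on is unknown here, and single percentages therefore carry no interval.

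In mammals, methyl groups on cytosine are placed by DNA methyltransferases, are removed passively at cell division or actively through TET enzymes, and lie almost wholly at CpG dinucleotides. Dense methylation near a transcription start usually accompanies a silent gene, whereas methylation inside genes and at distant elements varies with cell type. A buccal swab holds epithelial cells and white blood cells. A shift in the share of these cells and a change of methylation within them cannot be told apart in such samples.

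The study's tables place 27 of the tested DMRs at a promoter, and 2 of these, at Calml3 and Taok3, had an unadjusted p under 0.05. Their promoters, with that of Gpr39, a further promoter DMR described here, are shown with the CpG dinucleotides, the sites of methylation, in capitals. RRBS reads those that lie near a CCGG cut site. The windows run from 250 bases before to 50 bases after a RefSeq transcription start on GRCr8. The DMRs carry rn6 positions, so where a DMR lies within its window was not determined.
Calml3 (chr17:71331276-71331575, plus strand): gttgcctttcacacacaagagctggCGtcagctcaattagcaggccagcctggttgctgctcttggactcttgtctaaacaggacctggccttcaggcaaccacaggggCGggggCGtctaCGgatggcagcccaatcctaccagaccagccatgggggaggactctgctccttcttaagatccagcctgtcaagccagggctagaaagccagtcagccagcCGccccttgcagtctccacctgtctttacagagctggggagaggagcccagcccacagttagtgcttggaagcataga
Taok3 (chr12:45134390-45134689, minus strand): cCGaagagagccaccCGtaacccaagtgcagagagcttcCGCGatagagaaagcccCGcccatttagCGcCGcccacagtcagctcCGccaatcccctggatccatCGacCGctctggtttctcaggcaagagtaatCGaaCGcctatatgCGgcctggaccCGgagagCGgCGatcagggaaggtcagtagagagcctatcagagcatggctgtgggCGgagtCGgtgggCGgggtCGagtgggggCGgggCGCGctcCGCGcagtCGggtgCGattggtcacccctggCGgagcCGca
Gpr39 (chr13:39667658-39667957, plus strand): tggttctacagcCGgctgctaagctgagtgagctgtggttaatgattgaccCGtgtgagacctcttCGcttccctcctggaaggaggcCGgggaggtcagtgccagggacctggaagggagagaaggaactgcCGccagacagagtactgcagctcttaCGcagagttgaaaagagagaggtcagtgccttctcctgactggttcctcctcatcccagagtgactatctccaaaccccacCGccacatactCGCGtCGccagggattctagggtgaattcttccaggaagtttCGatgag
The Calml3 window held 5 CpGs and no CCGG, the Taok3 window 29 CpGs and 1 CCGG, and the first of 2 Gpr39 windows 11 CpGs and 2 CCGG. Both motifs, CG and CCGG, read the same on both strands, and each CCGG contains one CG. Of all 33469 windows of this length, 94.5% held CG and 51.4% held CCGG, with a median of 7 CG.

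Before any test, the pups were compared with each other. A principal component analysis (PCA) of δ methylation over the 3381 DMRs placed 58.3% of the variance on PC1 and 8.73% on PC2. On PC1, C6 and C9 stood apart from all other pups, with scores of −44.5 and −44.6. LBN4 followed with −21.4 and C3 with −6.48, whereas the other 7 pups lay between 4.55 (LBN9) and 33.1 (LBN2). Control and LBN scores overlapped on PC1, with a mean of −7.41 ± 31.0 (SD, n = 6) against 8.89 ± 20.8 (SD, n = 5), and the exact permutation test gave p = 0.331. Scores are centred on the mean of the pups, and C6, C9 and LBN4 had the lowest on this largest axis, one of them an LBN. Across DMRs, which are not independent replicates, δ methylation of 2 control pups correlated with r between −0.416 and 0.764 over 15 pairs, and that of 2 LBNs with r between −0.139 and 0.723 over 10 pairs. Between a control and an LBN, r lay between −0.495 and 0.79 over 30 pairs, with a median of 0.393 against 0.0545 within controls and 0.549 within LBNs.

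**Figure D1:**
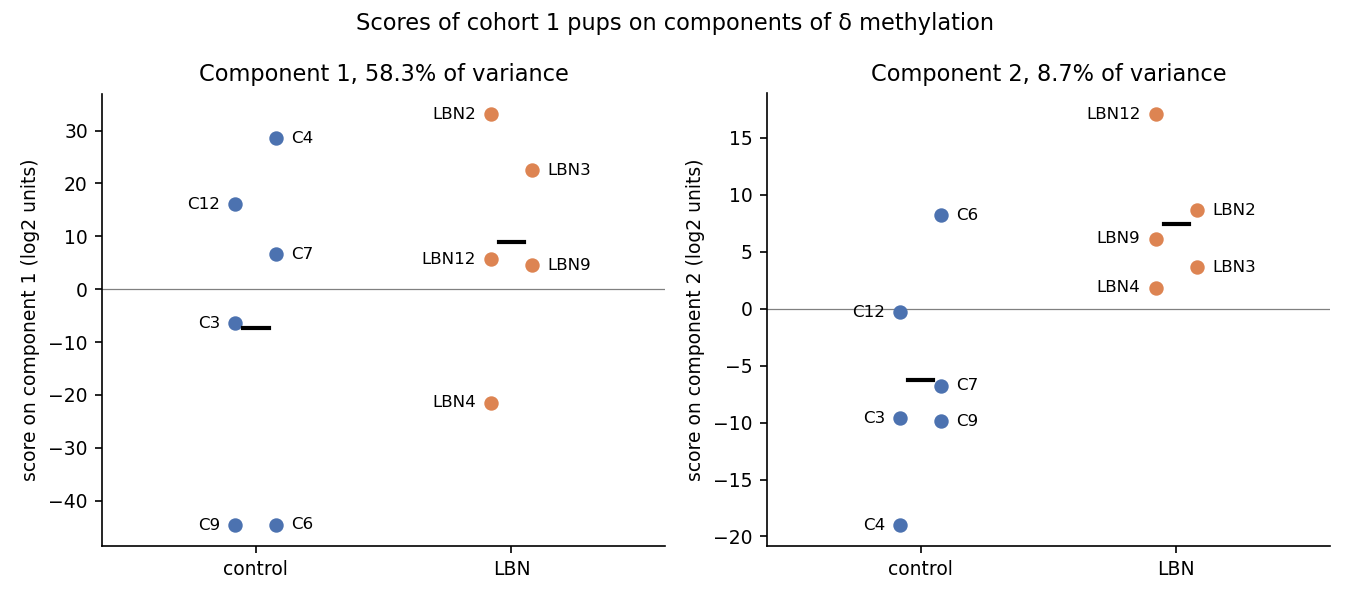
Scores of the 11 cohort 1 pups on the first 2 principal components of δ methylation, with 1 point per pup, the score in log2 units on the vertical axis and a black bar at the group mean. C6 and C9 lie near −45 on component 1, and the groups overlap on both components.

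PC2 gave the smallest p of the 10 components. LBN scores were 8.64 in LBN2, 3.65 in LBN3, 1.85 in LBN4, 6.14 in LBN9 and 17.1 in LBN12. Control scores ran from −19.0 (C4) to 8.22 (C6), and only C6 lay within the range of LBNs. The means were 7.48 ± 5.96 (SD, n = 5) and −6.23 ± 9.30 (SD, n = 6), and the exact permutation p of 0.0195 was 0.195 after Benjamini-Hochberg adjustment over the 10 components. Without LBN12, the difference of 13.7 was 7.74 and the exact p 0.267.

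Averaged over DMRs, δ methylation was −0.045 ± 0.085 in controls and 0.0086 ± 0.050 in LBNs. The share of DMRs lower at P10 was 52.2% ± 5.32 in controls and 47.0% ± 4.82 in LBNs, with a lowest share of 42.0% in LBN12 and a highest of 58.3% in C3. The SD of δ methylation over DMRs, which tells how far a methylome moved in either direction, was 0.697 ± 0.144 in controls and 0.674 ± 0.205 in LBNs. None of these 3 differences passed the test, with exact permutation p values of 0.234, 0.117 and 0.823 and adjusted values of 0.351, 0.351 and 0.823.

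DMR by DMR, no difference in δ methylation passed an adjusted p of 0.05 in limma, the smallest adjusted p being 0.778. At an unadjusted p under 0.05 there were 198 DMRs, 109 higher in LBNs (3.22% of those tested) and 89 lower (2.63%). As a whole the DMRs leaned slightly upward in LBNs, with 58.7% above 0 and a median difference of 0.078. The 5th and 95th percentiles of the difference were −0.66 and 0.65, and the median standard error was 0.29. A difference above 1 was found at 26 DMRs and below −1 at 43, between −1.97 at Nlrp1a, an inflammasome sensor named here after its values were seen, and 1.68 at Pdcd6ip. Controls varied more than LBNs at 2339 of the 3381 DMRs. Without C6 and C9, 182 DMRs had an unadjusted p under 0.05, 69 of them among the 198, and 52.2% of all DMRs were higher in LBNs. All 198 kept their direction, but they were picked for a small p on these same pups, so this is no independent evidence. Over all DMRs, the differences with and without C6 and C9 correlated at r = 0.61.

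The direction of change was shared by all pups at few DMRs. Of the 3381 DMRs, the level was lower at P10 in every pup of both groups at 116 and higher at 83. In all 6 controls it was lower at 266 DMRs and higher at 172. In all 5 LBNs it was lower at 482 and higher at 463. Agreement of 6 pups is harder to reach than that of 5, and the controls include C6 and C9. The counts of the groups are therefore not comparable directly. Every control was lower and every LBN higher at P10 at 1 DMR, and the reverse was found at none. The 1 DMR was a position on chromosome 19 (rn6 chr19:53954721-53954722) with no gene in the study's tables. There, δ methylation was 0.40, 0.11, 0.34, 0.25 and 0.15 in LBN2, LBN3, LBN4, LBN9 and LBN12, and ran from −1.88 to −0.16 in controls with a median of −0.22. The difference was 0.87 (SE 0.31, limma unadjusted p = 0.0149, adjusted p = 0.778), and 0.45 without C6 and C9.

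The δ methylation of LBNs lay wholly above that of controls at 11 DMRs (0.325% of those tested) and wholly below it at 7 (0.207%). The 2 ages contributed unequally to the difference, which on the log2 scale is the group difference at P10 minus that at P2. The P10 part was the larger at 2575 of the 3381 DMRs, with a median size of 0.29 against 0.11 for the P2 part, and at 181 of the 198. Across DMRs, the difference in δ methylation correlated with its P10 part at r = 0.88 and with its P2 part at r = −0.053, 2 quantities that are built from the same percentages.

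Unannotated DMRs are those with no gene in the study's tables, and genes near them were not looked up. Among DMRs that were higher in LBNs, the smallest p was at an unannotated DMR on chromosome 13 (rn6 chr13:34730705-34730717). Its level was 54.3% ± 8.05 at P2 and 39.7% ± 7.78 at P10 in controls (SD, n = 6), and 45.3% ± 12.5 and 67.3% ± 6.75 in LBNs (SD, n = 5). δ methylation was 0.77, 1.03, 0.085, 0.77 and 0.41 in LBN2, LBN3, LBN4, LBN9 and LBN12, and ran from −0.89 to 0.25 in controls with a median of −0.49. LBN4 lay inside the range of controls and the other 4 LBNs above it. The difference was 1.07 (SE 0.24, limma unadjusted p = 0.00087), and without C6 and C9 it was 0.86.

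The next was in an intron of Cbs (rn6 chr20:10381454-10381455), the enzyme that condenses homocysteine with serine and so draws it away from the methyl donor cycle. Its level started equal, at 58.1% ± 5.76 in controls and 58.1% ± 12.6 in LBNs, and at P10 was 36.9% ± 8.41 and 63.9% ± 8.99. All controls had a lower level at P10, with δ methylation from −1.10 to −0.30 and a median of −0.68. LBN values were −0.15, 0.53, −0.033, 0.21 and 0.24, and all 5 lay above the highest control. The difference was 0.84 (SE 0.21, unadjusted p = 0.00144 in limma), with equal P2 means.

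At an intergenic DMR assigned to Pik3cd (rn6 chr5:166629752-166629792), the catalytic subunit of a phosphoinositide 3-kinase found mainly in leukocytes, the groups were again apart. δ methylation was 1.57, 1.72, 0.75, 1.63 and 1.13 in the 5 LBNs, and ran from −1.63 (C9) to 0.58 in controls with a median of 0.25. The level of every LBN was higher at P10, where it was 52.6% ± 12.3 against 26.9% ± 7.06 in controls. The difference was 1.39 (SE 0.38, limma unadjusted p = 0.00313), and without C6 and C9 it was 0.95 (unadjusted p = 0.00185).

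Both Llgl1, a polarity protein of epithelial cells, and Calml3, a calmodulin-like protein of stratified epithelium, had P10 levels near the P2 levels in LBNs and lower ones in controls. In the Llgl1 exon (rn6 chr10:46948753-46948759) the level of controls was 84.8% ± 5.23 at P2 and 48.9% ± 13.4 at P10, and that of LBNs 79.1% ± 4.84 and 76.2% ± 12.4. LBN3, at −0.52, was the one LBN whose δ methylation overlapped with the controls, which ran from −1.24 to −0.22. At the Calml3 promoter (rn6 chr17:70071395-70071396), whose window is printed above, δ methylation was 0.053, 0.034, −0.063, −0.12 and 0.38 in LBNs and ran from −1.26 to −0.25 in controls, with no overlap. The differences were 0.76 (SE 0.22, limma unadjusted p = 0.00447) and 0.74 (SE 0.22, unadjusted p = 0.00595). C6 and C9 were the lowest controls at both, and without them the differences were 0.57 and 0.47.

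Tnfrsf1b encodes the second tumor necrosis factor receptor, which is carried mostly by immune cells. At its intronic DMR (rn6 chr5:163140329-163140330) the level of controls was 39.8% ± 8.98 at P2 and 11.9% ± 4.15 at P10, and that of LBNs 28.3% ± 9.79 and 25.0% ± 9.05. δ methylation was −1.70, −0.071, −0.32, −0.35 and 1.55 in LBNs and ran from −2.79 to −1.02 in controls. LBN2 lay within the controls and LBN12 was the only pup with a higher level at P10. The difference was 1.65 (SE 0.48, limma unadjusted p = 0.00475), part of which stood at P2, where LBNs were already lower.

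The remaining DMRs among the 10 with the smallest p had differences between 0.56 and 1.03. They were introns or intergenic positions of Nav2 (0.91), a cytoskeletal protein of growing neurons, and Rapgef1 (1.03), an exchange factor for the small GTPase Rap1, and unannotated positions on chromosomes 1 (0.56), 6 (0.76) and 2 (0.73). At Rapgef1 and at the chromosome 2 position (rn6 chr2:22605557-22605558), LBNs were lower than controls at P2, with unadjusted p values of 0.0289 and 0.00223 in limma. That swab preceded assignment, and the P10 levels there had adjusted p values of 0.229 and 0.29 in limma.

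**Figure D2:**
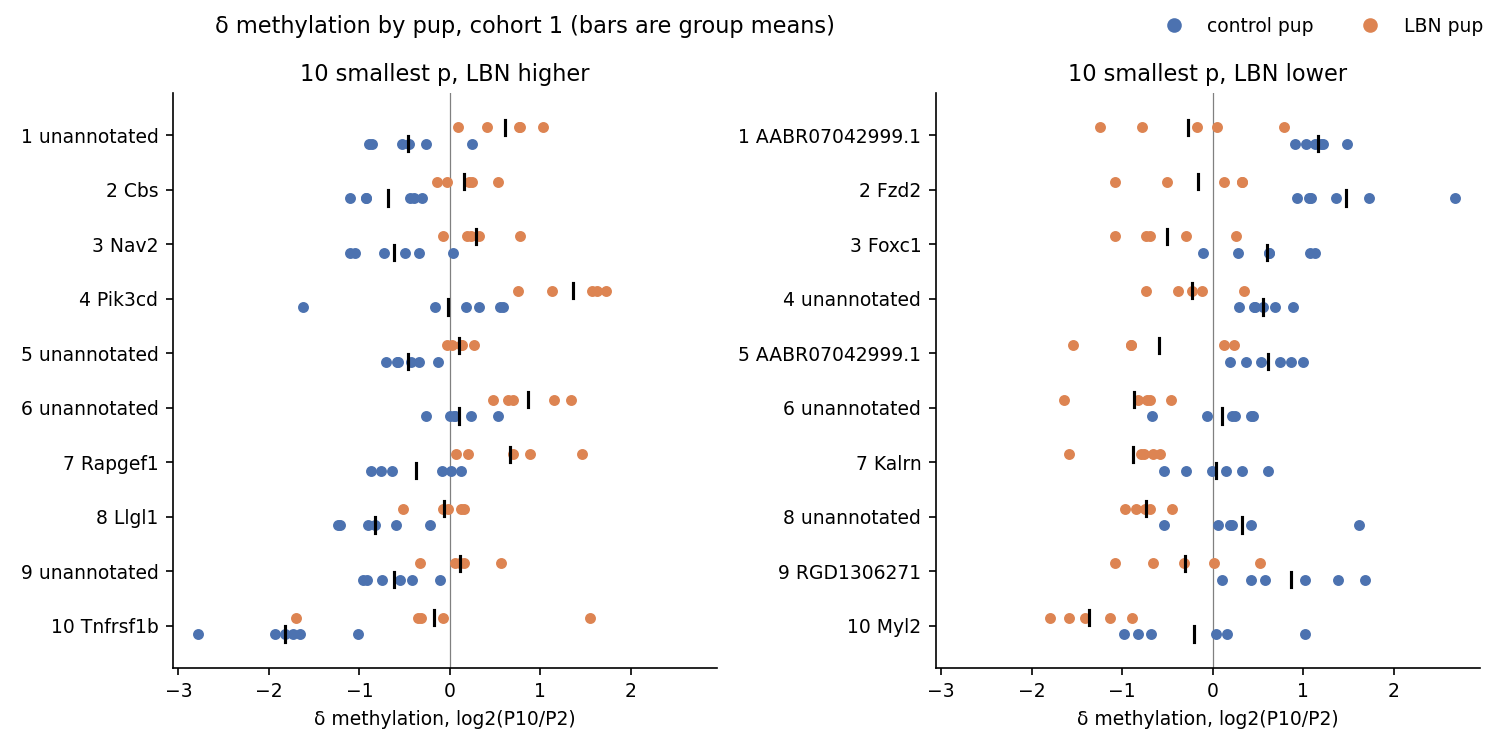
δ methylation of each pup, as log2(P10/P2) on the horizontal axis, at the 10 DMRs with the smallest p among those higher in LBNs (left) and among those lower (right), named by the gene in the study's tables. Points are pups, black bars group means of 6 controls and 5 LBNs, and at Cbs, Pik3cd, the chromosome 1 position, Fzd2, Kalrn and the first AABR07042999.1 DMR the groups do not overlap.

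On the lower side, the smallest p of all was in an exon of AABR07042999.1, a gene model with no assigned function (rn6 chr19:15845693-15845776). Levels there were low, at 7.83% ± 0.977 in controls and 11.7% ± 6.10 in LBNs at P2 and 17.7% ± 3.83 and 9.46% ± 3.49 at P10. δ methylation of controls was tightly grouped between 0.91 and 1.48 with a median of 1.16, while LBN values were −0.18, −0.78, 0.79, 0.049 and −1.25. All LBNs lay below all controls, and they were also more scattered. The difference was −1.43 (SE 0.31, limma unadjusted p = 0.000591), and a second exonic DMR of the same gene had −1.21 (SE 0.32, unadjusted p = 0.0024).

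Fzd2, a receptor for Wnt ligands, had the next smallest p at a DMR in its exon (rn6 chr10:90551877-90551939). Its level was 5.79% ± 1.66 at P2 and 15.9% ± 4.29 at P10 in controls, against 7.18% ± 1.72 and 6.39% ± 1.32 in LBNs. δ methylation was 0.32, −0.51, 0.12, −1.08 and 0.33 in LBNs and ran from 0.93 to 2.68 in controls, with a median of 1.22. All 6 controls lay above all LBNs. The difference was −1.64 (SE 0.36, limma unadjusted p = 0.000611) and was −1.27 without C6, the highest control, and C9.

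The forkhead factor Foxc1, which patterns mesoderm and neural crest, had an intergenic DMR (rn6 chr17:33955799-33955800) with levels of 18.2% ± 3.08 and 28.4% ± 7.20 in controls and 19.8% ± 5.05 and 13.8% ± 2.98 in LBNs. LBN values of δ methylation were −0.69, −0.73, 0.25, −1.08 and −0.29, those of controls ran from −0.11 to 1.14, and LBN4 fell within the controls. The difference was −1.11 (SE 0.29, limma unadjusted p = 0.0021).

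Kalrn encodes a signaling protein that shapes dendritic spines. In its intron (rn6 chr11:69549968-69550006) the level of controls was 67.3% ± 13.2 at P2 and 68.3% ± 7.19 at P10, while that of LBNs was 70.1% ± 13.2 and 39.9% ± 14.2. δ methylation was −0.58, −0.79, −0.76, −0.66 and −1.59 in LBNs and ran from −0.54 to 0.61 in controls, so that the highest LBN and the lowest control differed by little. The difference was −0.92 (SE 0.25, limma unadjusted p = 0.00322).

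Myl2, a myosin light chain of heart and slow muscle, and Hmga1, a chromatin protein of growing cells, had intergenic DMRs with differences of −1.16 and −0.96. All 5 LBNs were lower at P10 at both. RGD1306271, a gene model without a name, had −1.17 in an intron, and 3 unannotated positions on chromosomes 10, 19 and 20 had −0.79, −0.97 and −1.07. The largest non-overlapping difference at an unannotated position was on chromosome 5 (rn6 chr5:142246941-142246942), with −2.91, −1.02, −1.55, −1.12 and −1.08 in LBNs against −0.97 to 0.82 in controls. Every DMR named here had an adjusted p of 0.778 or more for δ methylation.

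**Figure D3:**
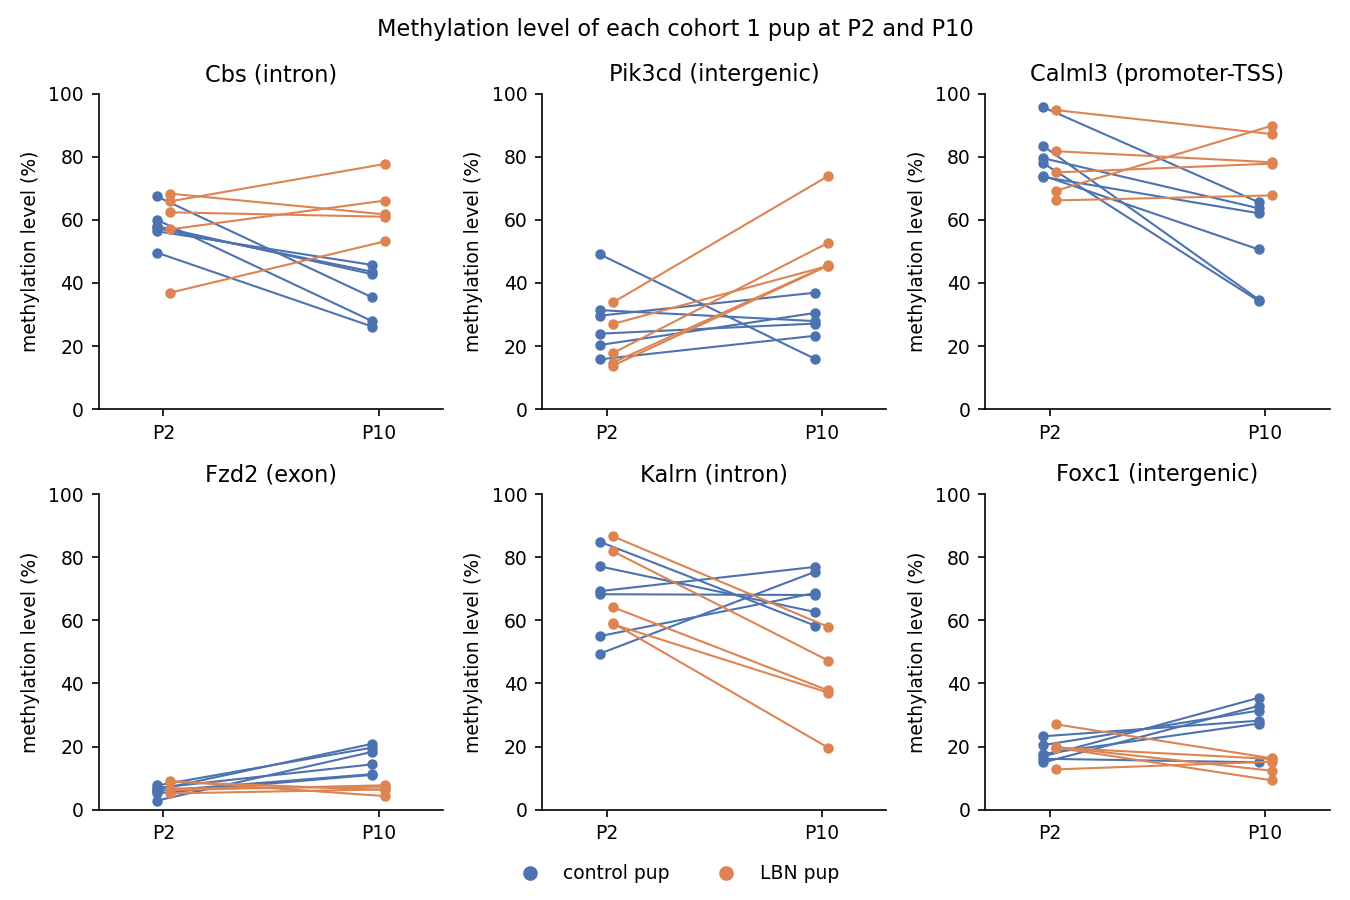
Methylation level in percent of each cohort 1 pup at P2 and P10, joined by a line, at DMRs of 6 genes, with controls in blue and LBNs in orange. At Cbs and Calml3 all 6 control lines descend, at Pik3cd all 5 LBN lines ascend, at Kalrn all 5 LBN lines descend, and at Fzd2 all 6 control lines ascend.

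The levels themselves were compared at each age, on the log2 odds of the percentage with 1 percentage point added to both sides. At P2, before assignment, no DMR passed the adjusted p in limma, and 19 were higher (0.556%) and 40 lower (1.17%) in the later LBNs at an unadjusted p under 0.05. At P10, 257 DMRs were higher in LBNs (7.52%) and 152 lower (4.45%) at an adjusted p of 0.05. Of the 408 that were also tested for δ methylation, 405 differed there in the same direction and 98 had an unadjusted p under 0.05. The smallest adjusted p at P10 was 0.0364, and the number of calls depended on single pups: none was left without C3, without C6, without C9, without LBN2, without LBN9 or without LBN12, and there were 91 without C12, 192 without C7 and 1151 without C4. At an unadjusted p under 0.05 the P10 level differed at 1299 DMRs (38.0%), and at 847 to 1647 without single pups. With the P2 level of the same DMR as a covariate, 342 DMRs were higher (10.0%) and 200 lower (5.85%), 388 of them among the P10 calls, and leaving out single pups was not tried for that fit. With the PC1 score as a covariate, or without C6 and C9, the P10 count at the adjusted p was 0, with 216 and 606 DMRs at an unadjusted p under 0.05.

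Of the DMRs named above, Cbs, Pik3cd, Llgl1, Calml3, Fzd2 and Kalrn had P10 adjusted p values of 0.0364 to 0.0365, close to the smallest of 0.0364. Nav2 (0.044), Foxc1 (0.0382) and Tnfrsf1b (0.0456) also passed, whereas AABR07042999.1 (0.0559), Hmga1 (0.0754) and Myl2 (0.0944) did not. None of them except Rapgef1 and the chromosome 2 position differed at P2 at an unadjusted p under 0.05.

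Groups of genes were described by their counts, since gene names come from the study's tables, which list DMRs selected on these same pups and are no independent evidence of direction. The tables name a gene at 438 of the tested DMRs, 213 higher and 225 lower in LBNs with a median of −0.029, and 71 of them had an unadjusted p under 0.05, 29 higher and 42 lower. Each list is set beside the 58.7% of all DMRs that were higher and the median of 0.078. Calls in a list at an unadjusted p under 0.05 stand beside 3.22% higher and 2.63% lower over all DMRs.

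Homeobox genes, which set position and cell fate in the embryo, were lower in LBNs at 18 of 19 DMRs of 16 genes, with a median difference of −0.48 and none at an unadjusted p under 0.05. Irx4 had −1.07 (SE 0.51, limma unadjusted p = 0.0562), Nkx2-3 had −1.06 and Dlx1 had −1.21, and Meis1 (0.47) was the exception. Nkx2-3 had −0.60 and Dlx1 −0.58 without C6 and C9. At P10, 5 of the 19 were lower and none higher in LBNs at an adjusted p of 0.05, Dlx1 among them, beside 50 of the 438 DMRs with a gene and 4.45% of all DMRs that were lower. No P10 call was left without C6 and C9. The list's median moved with the pups that stood apart on PC1. It was 0.85 in C6, 1.22 in C9 and 0.90 in LBN4, between −0.31 and 0.45 in the other 4 controls, and between −0.55 and −0.19 in the other 4 LBNs. Without C6 and C9, 15 of 19 were lower, with a median of −0.32.

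Other developmental regulators were lower at 17 of 21 DMRs of 12 genes. At an unadjusted p under 0.05 in limma 6 were lower and none higher, beside 42 lower of the 438 DMRs with a gene. Foxc1 was described above. Gata3, which directs T cell and skin differentiation, had −1.57 (SE 0.57, limma unadjusted p = 0.0167) in an exon. Its level was 4.22% at P2 and 11.2% at P10 in controls and 4.68% and 4.82% in LBNs, and the difference was −0.94 without C6 and C9. Tbx3, a T-box repressor, was lower at 4 of 4 DMRs, from −1.20 to −0.53, and Skor1, a transcriptional corepressor, at 3 of 3, from −1.12 to −0.72. Without C6 and C9 the list was lower at 11 of 21 DMRs, with a median of −0.20 in place of −0.53 and 4 at an unadjusted p under 0.05 in limma. DMRs of 1 gene lie close together and are not separate replicates.

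Growth factors and their receptors were lower at 13 of 21 DMRs with a median of −0.34. At an unadjusted p under 0.05 in limma 4 were lower and 1 higher, beside 42 and 29 of the 438 DMRs with a gene. Besides Fzd2, the neurotrophic ligand Gdnf was lower at 3 of 3 DMRs (−1.05 to −0.42) and the ligand Wnt3 at 2 of 2 (−1.13 and −0.77). Tgfbr3, a co-receptor for transforming growth factor β, was higher at 2 of 2, with 0.49 (SE 0.18, limma unadjusted p = 0.0183) and 1.67. Without C6 and C9 the growth factor list had a median of −0.25 and 1 DMR at an unadjusted p under 0.05 in limma. Axon guidance genes were lower at 5 of 7 DMRs, among them the cues Sema6c (−0.74, unadjusted p = 0.0133 in limma) and Slit3 (−0.93, unadjusted p = 0.0319). Without C6 and C9, Sema6c had −0.57 and Slit3 −0.66, and no axon guidance DMR had an unadjusted p under 0.05.

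Genes of the nuclear factor κB and tumor necrosis factor pathways were higher at 8 of 13 DMRs with a median of 0.12, or 0.33 without C6 and C9, and 2 in each direction had an unadjusted p under 0.05. Tnfrsf1b (1.65) stood at one end and Nlrp1a (−1.97), the lowest of all tested DMRs, at the other. Tnfaip2, a protein induced by tumor necrosis factor, had −0.78 (SE 0.25, limma unadjusted p = 0.00839) and was lower at both of its DMRs. Cytokine and chemokine signaling was even, with 4 of 8 DMRs higher, among them Pik3cd (1.39) and, on the lower side, the cytokine Osm (−0.88, unadjusted p = 0.0907 in limma, and −0.47 without C6 and C9).

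In the stress axis list, 3 of 4 DMRs were lower. Sgk1, a kinase induced by glucocorticoids, had −1.08 (SE 0.47, limma unadjusted p = 0.0422) in an intron (rn6 chr1:24207835-24207836), with LBN values of −1.39, −1.62, −0.42, −0.81 and −1.65 and control values from −1.15 to 1.38 that overlapped with them. Without C6 and C9 it was −0.49. The serotonin receptor gene Htr2a had −0.64 (unadjusted p = 0.0912 in limma).

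Genes of the methylation machinery and methyl donor cycle were higher at 3 of 4 DMRs, led by Cbs. Dnmt3a, which places methyl groups de novo, was the fourth, with −0.77 (SE 0.40, limma unadjusted p = 0.0791) in an intron where the level of controls was 9.3% at P2 and 22.5% at P10 against 9.5% and 13.2% in LBNs. The Dnmt3a difference was −0.27 without C6 and C9 (unadjusted p = 0.396 in limma). Metabolic genes were higher at 13 of 23 DMRs with a median of 0.12, which was −0.077 without C6 and C9, and the lipid-sensing nuclear receptor Ppard had 1.21 (SE 0.39, limma unadjusted p = 0.00897). There every pup was lower at P10, with δ methylation from −3.69 to −1.85 in controls and from −1.99 to −0.65 in LBNs, ranges that overlapped. Glycan enzymes were higher at 6 of 9 DMRs, with B4galt4 at 0.77 and Hs6st1 at 0.66 and none at an unadjusted p under 0.05. These were 0.26 and 0.19 without C6 and C9, and the median of the list was 0.064 in place of 0.23.

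Markers of epithelial cells and leukocytes, which a swab holds, and of stroma and muscle were treated in the same way, as DMRs at their genes. Epithelial markers were higher in LBNs at 7 of 8 DMRs with a median of 0.26, leukocyte markers at 6 of 8 with 0.18, and stromal and muscle markers at 3 of 13 with −0.37. Calml3 among the epithelial genes and the leukocyte protein Lsp1 (0.94, limma unadjusted p = 0.0117, with LBNs lower at P2 at an unadjusted p of 0.0299) had the smallest p on the higher side. In the stromal list Myl2 and Tnxb, a matrix protein that was lower at 3 of 3 DMRs (−1.10 to −0.92), were on the lower side. The median of the epithelial list was −1.16 in C6, −0.99 in C9 and −0.48 in LBN4 and −0.46 in C3, and between −0.039 and 0.44 in the other 7 pups. The median of the leukocyte list lay between −0.48 and 0.23 in all pups and did not separate C6 and C9. The epithelial median was thus lowest in the pups with the lowest PC1 scores. Of its 8 DMRs, 5 had a positive weight on PC1, beside 1785 of all 3381 and 4 of the 19 homeobox DMRs. The part of epithelial marker DMRs in the differences between groups was not tested. Without C6 and C9, 5 of 8 epithelial DMRs were higher, with a median of 0.12, and the leukocyte median was 0.29.

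**Figure D4:**
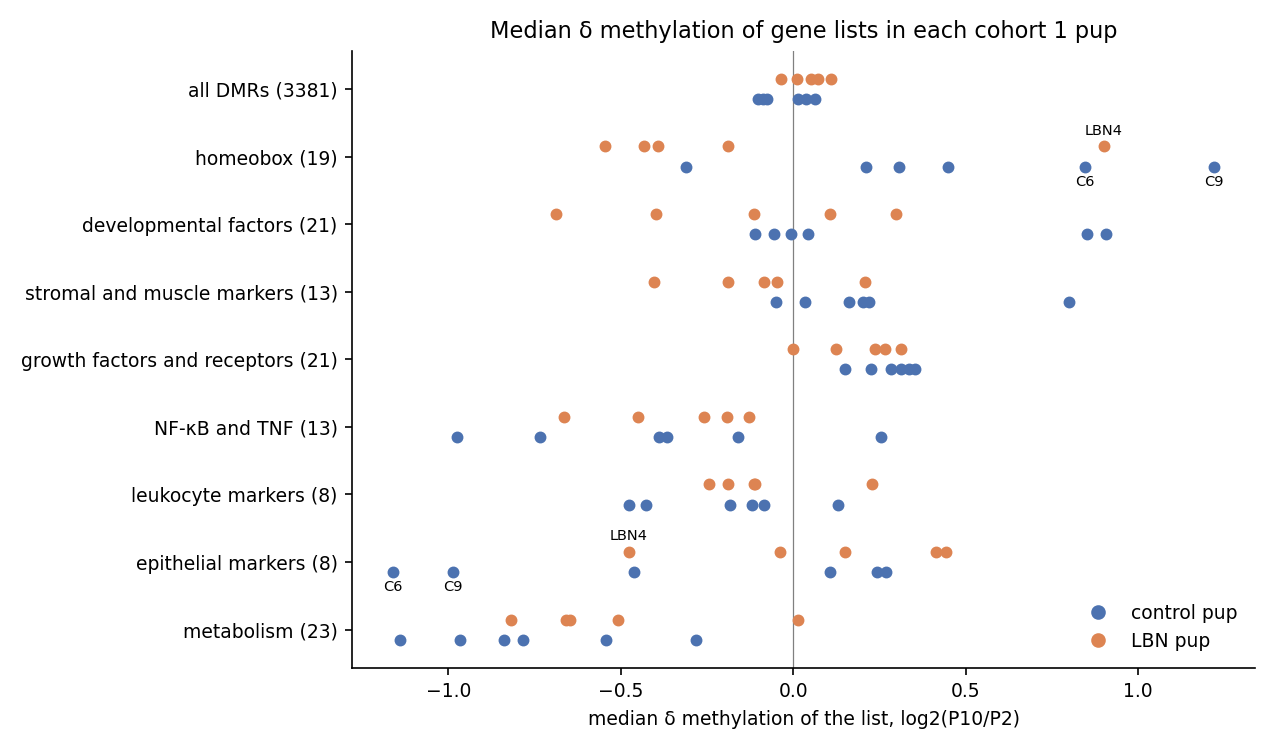
Median δ methylation, as log2(P10/P2), of 8 gene lists and of all DMRs in each cohort 1 pup, with 1 point per pup and the number of DMRs in brackets. C6, C9 and LBN4 have the highest homeobox medians (0.85, 1.22 and 0.90), and C6, C9 and LBN4 the lowest epithelial medians (−1.16, −0.99 and −0.48).

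Genes that the study's text names for their weights on an axis of experience were looked up in cohort 1 alone, through the DMR with the smallest p of each. Because those weights were computed from these pups and those of cohort 2 together, their direction here is no independent evidence. Of 34 genes with positive weights, 30 were higher in LBNs, with a median of 0.46, and 3 had an unadjusted p under 0.05. These were Tnfrsf1b, Net1 (0.81, limma unadjusted p = 0.00759, and 0.52 without C6 and C9) and Pdcd6ip (1.68, SE 0.54, unadjusted p = 0.00941), a protein of endosomal sorting. At Pdcd6ip, in an intron (rn6 chr8:121972120-121972121), LBN values were −0.60, 1.20, −0.29, −2.20 and 0.94 and control values −2.89 to −1.33, and LBN9 lay within the controls. Levels there were low, at 13.4% at P2 and 3.83% at P10 in controls and 14.2% and 13.9% in LBNs. In percentage points the difference in change was 9.23. Of the 16 genes with negative weights, 11 had a tested DMR, all 11 were lower in LBNs with a median of −0.81, and 5 had an unadjusted p under 0.05. These were Tnfaip2, Skor1, Gata3, Tbx3 and Gdnf. The Gata3 DMR among them stands in the study's table for age and not in that for experience, and the other DMR of Gata3, which does stand there, had −0.19. These 5 genes had 2 to 4 tested DMRs each, and taking the smallest p of several raises such counts. An unadjusted p under 0.05 in limma was found at 5.86% of all DMRs and at 71 of the 438 with a gene. Gpr39, a zinc-sensing receptor whose promoter is printed above, had 0.57 (SE 0.32, limma unadjusted p = 0.0979). Its P2 level was higher in controls, at 55.8% against 38.8% (limma unadjusted p = 0.0312), and its P10 level was 37.5% and 38.9%. Taok3, a kinase of the stress-activated pathway, was named after its values were seen and had −0.65 (SE 0.26, unadjusted p = 0.0287 in limma) at its promoter.

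Differences were also set out by the level at which a DMR started. Mean P2 levels under 25% were found at 336 DMRs, of which 9.82% had an unadjusted p under 0.05 and whose median standard error was 0.44. Between 75% and 100% there were 432 DMRs, with 2.08% and a standard error of 0.17. Single CpG positions, 2475 in number, and longer DMRs, 906, were higher in LBNs at 58.2% and 60.2%. By place, exons were higher in LBNs at 37 of 89 DMRs, introns at 101 of 196, intergenic positions at 52 of 105, promoters at 12 of 27 and transcription ends at 11 of 21. These 438 DMRs are those the study listed, and they held 71 of the 198 with an unadjusted p under 0.05.

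The 36 DMRs left out for a percentage of 0 were examined with 1 percentage point added to both ages, without a test. In LBNs, 10 had a higher and 26 a lower δ methylation than in controls. A position of the homeobox gene Six2 had −1.57, Tfap2c, a transcription factor of epidermis and neural crest, −1.18, and the phosphatase gene Ptpro 1.75. The Hox genes Hoxb5 (−0.09) and Hoxd4 (−0.92) were also among them.

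Cohort 2, with 4 control and 4 LBN pups reared in the same way on other dates, allowed the same comparison in other animals. Over the 3354 DMRs tested in both, the differences correlated at r = −0.54 across DMRs, which share libraries and were selected on all these pups, and 27.8% had the same sign. Of the 196 with an unadjusted p under 0.05 in cohort 1, 30 had the same sign in cohort 2. A p under 0.05 in both cohorts was found at 58 with opposite signs and at 1 with the same sign. In cohort 2 as a whole, 11.6% of the DMRs were higher and 11.4% lower at that p. Projected on the PC1 weights of cohort 1, LBNs of cohort 2 lay 29.2 below controls, while those of cohort 1 lay 16.3 above. With the score on these weights as a covariate in each cohort, r was −0.12 and 43.5% had the same sign.

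A test of the difference between cohorts found 840 DMRs at an unadjusted p under 0.05 (25.0%) and 1 at an adjusted p of 0.05 (0.0298%), the Pik3cd DMR. LBNs exceeded controls there by 1.39 in cohort 1 and lay below them by 2.05 in cohort 2, a difference between cohorts of 3.43 (limma adjusted p = 0.0322). Without any one of C3, C6, C7, LBN2, LBN3, LBN9 or LBN12 of cohort 1 that count was 0, and without LBN4 it was 238. Of 51 named DMRs, 41 took the other direction in cohort 2, and all 41 are listed in the last paragraph. Among them were Cbs (−0.56), Llgl1 (−0.017), Calml3 (−0.30), Foxc1 (0.26), Kalrn (0.29), Gata3 (1.15) and Sgk1 (0.76). Fzd2 was among the few that kept their sign (−0.19), as were Tnfrsf1b (1.06), Rapgef1 (0.40), Pdcd6ip (0.23), Net1 (0.21), Lsp1 (0.54) and Gpr39 (0.85). In cohort 2, the DMRs taken for the study's positive-weight genes were higher in LBNs at 32 and lower at 0, with a median of 0.94. Those for negative-weight genes were higher at 8 and lower at 3, with a median of 0.57. Cohort 2 pups also entered those weights. Homeobox DMRs were higher in cohort 2 LBNs at 12 and lower at 6.

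**Figure D5:**
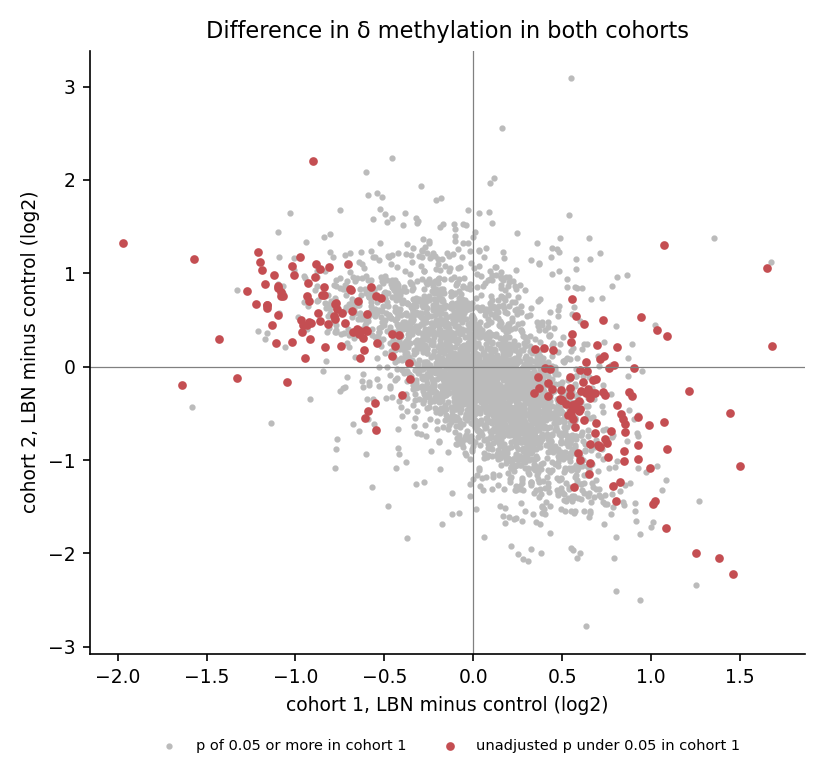
LBN minus control difference in δ methylation (log2) of 3354 DMRs in cohort 1 (horizontal) and cohort 2 (vertical), with 1 point per DMR and the 196 with an unadjusted p under 0.05 in cohort 1 in red. Most red points lie in the upper left and lower right, where the signs are opposite, and 30 of them have the same sign in both cohorts.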

How the data were processed

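Genomic DNA of buccal swabs was digested with MspI and measured by RRBS. The authors trimmed reads with Trim Galore 0.4.3, aligned them to rn6 with Bismark 0.16.3, and kept CpGs with more than 10 reads. Positions that passed a false discovery rate of 0.05 between the 2 ages of a pup, and did so in at least 2 pups of a group, were merged within 100 bases. The authors deposited, for the resulting 3417 DMRs, the percent of reads that were methylated in each sample. Read numbers are not given, so the depth and the error of a single percentage are unknown and no coverage minimum could be tried.

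The 2 samples of a pup were joined through the name they share in the labels. δ methylation was compared with the moderated test of limma (version 3.58.1, R 4.3.3, no covariate) over all tested DMRs of cohort 1, with Benjamini-Hochberg adjustment. The test was first checked on simulated data in which DMRs varied independently. That check does not cover DMRs that vary together, as these do. Levels were compared as log2((percent + 1)/(100 − percent + 1)). For per-pup values and PCA scores, all 462 arrangements were enumerated in an exact permutation test, two-sided. Python 3.11.15, numpy 2.4.6, pandas 2.3.3 and matplotlib 3.10.9 were used. Alternatives were other scales, pseudocounts, filters, variance models, blocks, covariates, cohort 2, and each pup left out in turn. The PC1 covariate and the joint omission of C6 and C9 were added after seeing the data.

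The comparison and the gene lists (homeobox, other developmental regulators, nuclear factor κB and tumor necrosis factor, cytokines and chemokines, growth factors and receptors, axon guidance, stress axis, methylation machinery, glycan enzymes, metabolism, and leukocyte, epithelial and stromal and muscle markers) were chosen with earlier results of these data known. DMRs were named by rule: the 10 smallest p in each direction, the 5 largest non-overlapping differences in each direction, the 2 smallest p of each list, and the smallest p of each gene the study names for experience. Genes and places were taken from the study's tables, which list 438 of the tested DMRs, and its values were not used. Promoter sequences are from RefSeq on GRCr8, not the build of the files.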

Additional observations from a re-analysis of the deposited data

Results flagged for a closer look

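Among 112 groups of pups compared (5 summary scores and 51 DMRs, controls and LBNs apart), 5 held a pup whose gap to the nearest other pup exceeded Dixon's 95% limit for the range of its group, about as many as chance gives at 1 in 20. At the Pik3cd DMR, δ methylation of C9 was −1.63 and that of the other controls lay between −0.17 and 0.58. The same pup had 1.46 at the Hmga1 DMR, against −0.14 to 0.29 in the other controls. LBN12 had −1.59 at the Kalrn DMR, against −0.79 to −0.58 in the other LBNs. LBN2 had −2.91 at the unannotated DMR on chromosome 5 (rn6 chr5:142246941-142246942), against −1.55 to −1.02, and −1.20 at Htr2a, against −0.58 to −0.42.

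The LBN minus control difference at the Pik3cd DMR was 3.43 higher in cohort 1 than in cohort 2, and a test of the difference between cohorts in limma gave an adjusted p of 0.0322. Without C9 of cohort 1, the count of DMRs that passed this test was 2, and over all pups left out in turn it lay between 0 and 238.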

How the results depend on the processing

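For δ methylation, no DMR passed the adjusted p in limma under any cohort 1 setting, with 118 to 388 at an unadjusted p under 0.05 when single pups were left out, except with the P2 level as a covariate, which called 542. Cohort 2 alone called 11. At P10, the 409 calls became 15 on log2(percent + 1), 0 with PC1 as a covariate, 0 without C6 and C9, and 0 to 1151 without single pups. The difference between cohorts passed at 2 DMRs on the log-odds scale, 5 in percentage points, and 0 to 238 without single pups. Per pup, cohort 2 alone gave a mean difference of −0.0913 and a share lower at P10 that was 5.84 points higher in LBNs, both of the other sign (exact permutation p = 0.229 for each). The difference in SD ran from −0.0987 to 0.0383 without single pups, and the PC2 difference from 7.74 to 16.6, and scaling to unit variance gave 21.0 (exact permutation p = 0.0801). Depth is unknown, so it sets no limit that could be stated here.

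Pups of the 2 groups share the numbers 3, 4, 9 and 12 in name only, with r of 0.161, −0.684, 0.138 and −0.0974 between their deviations. With these numbers as a replicate block, 0 DMRs passed for δ methylation (63 at an unadjusted p under 0.05 against 198) and 0 at P10.

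At 51 named DMRs, 969 values were computed in all. The settings were other scales, a pseudocount, centring, single pups left out and cohort 2 alone. The PC1 covariate and the omission of C6 and C9 were added after seeing the data. The P2 covariate was a planned fit, but its values at the named DMRs were also added then. Of the 969 values, 898 kept their direction and side of the adjusted threshold, 29 passed it, all with the P2 covariate, and 42 took the other direction. One of the 42 was Gpr39 with the P2 covariate, at −0.34 in log2 odds, and the other 41 were in cohort 2 alone, where the cause was not tested. Those 41 differences were rn6 chr13:34730705-34730717 −0.59, Cbs −0.56, Nav2 −0.0172, Pik3cd −2.05, rn6 chr1:274124691-274124692 −1.29, rn6 chr6:107286723-107286724 −0.97, Llgl1 −0.0169, AABR07042999.1 0.30, Foxc1 0.26, rn6 chr10:17050721-17050731 0.54, AABR07042999.1 1.23, rn6 chr19:20407702-20407703 0.50, Kalrn 0.29, rn6 chr20:3764973-3764974 0.76, RGD1306271 0.89, Myl2 0.66, rn6 chr19:53954721-53954722 −0.27, rn6 chr7:34119404-34119405 −0.69, Calml3 −0.30, rn6 chr5:142246941-142246942 0.66, Hmga1 0.45, Irx4 0.86, Nkx2-3 0.21, Skor1 0.98, Tnfaip2 0.67, Osm 0.71, Tgfbr3 −0.35, Sema6c 0.23, Slit3 0.70, Sgk1 0.76, Htr2a 0.67, Dnmt3a 0.45, Ppard −0.26, Wipf1 0.0952, Itga6 −1.58, Tnxb 0.56, Dlx1 0.38, Tbx3 1.12, Gata3 1.15, Gdnf 0.86 and Taok3 0.71.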
